A study of Mus musculus with 8 samples.

Results

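The mRNA of 9 genes for regulators of G protein signaling (Rgs1, Rgs2, Rgs3, Rgs10, Rgs11, Rgs14, Rgs16, Rgs18 and Rgs19) was followed across 4 populations of CD4 T cells: naïve (Tnaive), follicular helper (TFH), regulatory (Treg) and follicular regulatory (TFR) cells. The 9 genes were taken by name from the 29924 gene names on the array. All 9 were on the array, and 8 of them were among the 15764 genes tested, since these required a signal well above background in 1 or more cell types at both days. Rgs18 was well above background on no array.

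The cells had been sorted from peripheral lymph nodes (pLN) of mice of the strain B6.Cg-Foxp3<tm1Mal>, in which Foxp3 expressing cells carry EGFP. All mice, aged 8 to 14 weeks and of both sexes, had been immunized with keyhole limpet hemocyanin in alum, so that the Tnaive cells also came from immunized animals. All cells had been gated as live, CD4+ and negative for B220, a surface marker of B cells. By the sort, Tnaive cells were EGFP negative with low PD1 and no GL7, TFH cells EGFP negative with high PD1 and GL7, Treg cells EGFP positive with low PD1 and no GL7, and TFR cells EGFP positive with high PD1, whether GL7 was present or not. Each cell type was measured once at d12 and once at d25, each time from a pool of 8 to 15 mice and 25 ng of RNA. The 8 one-color arrays therefore give 2 arrays per cell type and no replicate within a day, and p-values measure the spread between these pools, including any change of a cell type difference with time.

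G protein-coupled receptors, among them the chemokine receptors and sphingosine-1-phosphate receptors that position lymphocytes, signal by loading the alpha subunit of a G protein with GTP. RGS proteins share a domain, the RGS box, that speeds up the hydrolysis of this GTP and thereby shortens the signal. Most members act on alpha subunits of the Gi class, some also on Gq, and several are known to dampen migration of T and B cells toward chemokines.

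Values are normalized intensities in relative units (RU), in which the 75th percentile of every array is 1500 and the lowest possible value is 20. Since probes differ in how strongly they bind, a level was compared between cell types for the same probe and never between genes. Per array, 18261 to 19867 of 39429 probes were well above background, and no probe was saturated. Differences are on the log2 scale with their SE from a limma fit over all 15764 genes, and a call means an adjusted p (Benjamini-Hochberg) below 0.05. In sorted populations measured in bulk, fewer cells with a transcript and less transcript per cell cannot be told apart. The arrays of d12 lay on slide 1, those of Tnaive and TFH cells of d25 on slide 2 and those of Treg and TFR cells of d25 on slide 3. Day and slide cannot be told apart, and at d25 a comparison of Foxp3+ with Foxp3- cells crosses slides. The d12 differences come from a single slide, and most such comparisons are given with that value as well.

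The labelled cell types were checked against marker lists. The summed level of 5 Treg markers was 1275 and 1390 RU in Tnaive cells and 126903 and 129612 RU in Treg cells. Follicular markers summed to 659032 and 871759 RU in TFH cells against 25285 and 26283 RU in Tnaive cells. In TFR cells the Treg markers summed to 110402 and 128088 RU and the follicular markers to 243430 and 308836 RU, below TFH cells. In TFH cells the Treg markers summed to 17943 and 20226 RU, mostly from Ikzf2 (10506 and 10814 RU) and Ctla4 (7083 and 8995 RU). Of 7 B cell markers, 3 were above background on all arrays and Pax5 on none. Their sum was 15987 RU in TFH cells at d25 and 5463 to 10041 RU on the other 7 arrays. A list of 5 genes of germinal center B cells, which includes Rgs13 and also S1pr2, a receptor of follicular T cells as well, summed to 15099 and 13627 RU in TFH cells and to at most 1623 RU elsewhere. The part of these B cell transcripts in the values of TFH cells, which had been gated as B220 negative, was not tested. The 2 markers of CD8 T cells (Cd8a and Cd8b1), above background on all arrays, summed to 5118 and 4957 RU in Tnaive and 4565 and 4208 RU in Treg cells, against 2114 and 3174 RU in TFH and 2235 and 2110 RU in TFR cells. Cd8b1 was lower in TFH than in Tnaive cells (-1.08, adjusted p = 0.00605) and in TFR than in Treg cells (-0.96, adjusted p = 0.0111). Of 5 markers of antibody-secreting cells, 4 were above background on all arrays, with sums of 20948 to 25461 RU in Tnaive cells and 30331 to 47857 RU in the other cell types. Most of each sum was Xbp1 (16064 to 42851 RU). Jchain of the same list ran otherwise and was highest in Tnaive cells at d12. It gave 7466 RU at d12 and 1157 RU at d25 in Tnaive and 3154 and 1499 RU in TFH cells. Treg cells gave 2967 and 418 RU of Jchain and TFR cells 893 and 656 RU. Of 7 myeloid markers, 3 were above background on all arrays and Cd14, Fcgr1 and Adgre1 on none, with sums from 14921 to 29679 RU. Most of each of these sums was the single gene Itgam (13020 to 28504 RU). The part of these lists in the results was not tested.

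The probe used for Rgs2 (chr1:145848830-145848889, minus strand, build NCBI37) and 1 of the 4 probes of Rgs3 (chr4:62363208-62363267, plus strand) both read through without a stop codon in at least 1 frame, as did most probes of the members. Both are shown because they resemble each other, with capitals marking the 35 bases of 59 that are identical when the probes are placed on each other with a shift of 1 base.
Rgs2 probe: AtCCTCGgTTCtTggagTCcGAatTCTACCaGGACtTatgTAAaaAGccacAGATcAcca
Rgs3 probe: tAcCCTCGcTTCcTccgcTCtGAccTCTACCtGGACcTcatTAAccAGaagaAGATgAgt

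The identity of 59.3% leaves 24 of the 59 compared bases different, and the values of both probes are given with each gene.

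Of the 9 genes, 5 have an entry in the RefSeq promoter table of build GRCm38.p6. The 250 bases upstream of Rgs16 and of Rgs10 are shown, since these genes had the largest rises in TFH cells among the members with such an entry. Capitals mark GC boxes (GGGCGG on either strand).
Rgs16, chr1:153740103-153740352, plus strand: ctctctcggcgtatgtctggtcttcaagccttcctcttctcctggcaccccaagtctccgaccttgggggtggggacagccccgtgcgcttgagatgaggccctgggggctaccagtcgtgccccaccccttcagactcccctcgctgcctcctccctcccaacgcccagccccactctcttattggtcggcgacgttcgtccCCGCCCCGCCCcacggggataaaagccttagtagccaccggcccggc
Rgs10, chr7:128418173-128418422, minus strand: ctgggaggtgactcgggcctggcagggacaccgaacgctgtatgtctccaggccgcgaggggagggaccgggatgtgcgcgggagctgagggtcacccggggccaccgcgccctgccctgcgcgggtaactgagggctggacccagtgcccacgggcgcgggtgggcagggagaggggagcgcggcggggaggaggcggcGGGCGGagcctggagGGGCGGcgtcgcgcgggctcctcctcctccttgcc

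Both windows held 2 GC boxes, a motif found in 32.7% of 32851 windows of this length. Neither held the TATA box (TATAAA, in 12.4% of windows), the core bound by NFAT factors (GGAAA, 55.6%) or the palindrome shared by STAT factors and Bcl6 (TTCNNNGAA, 7.02%) on either strand. The windows of Rgs16 and Rgs10 contained 66.4% and 76.4% G and C. These matches describe letters and not binding.

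**Figure D1:**
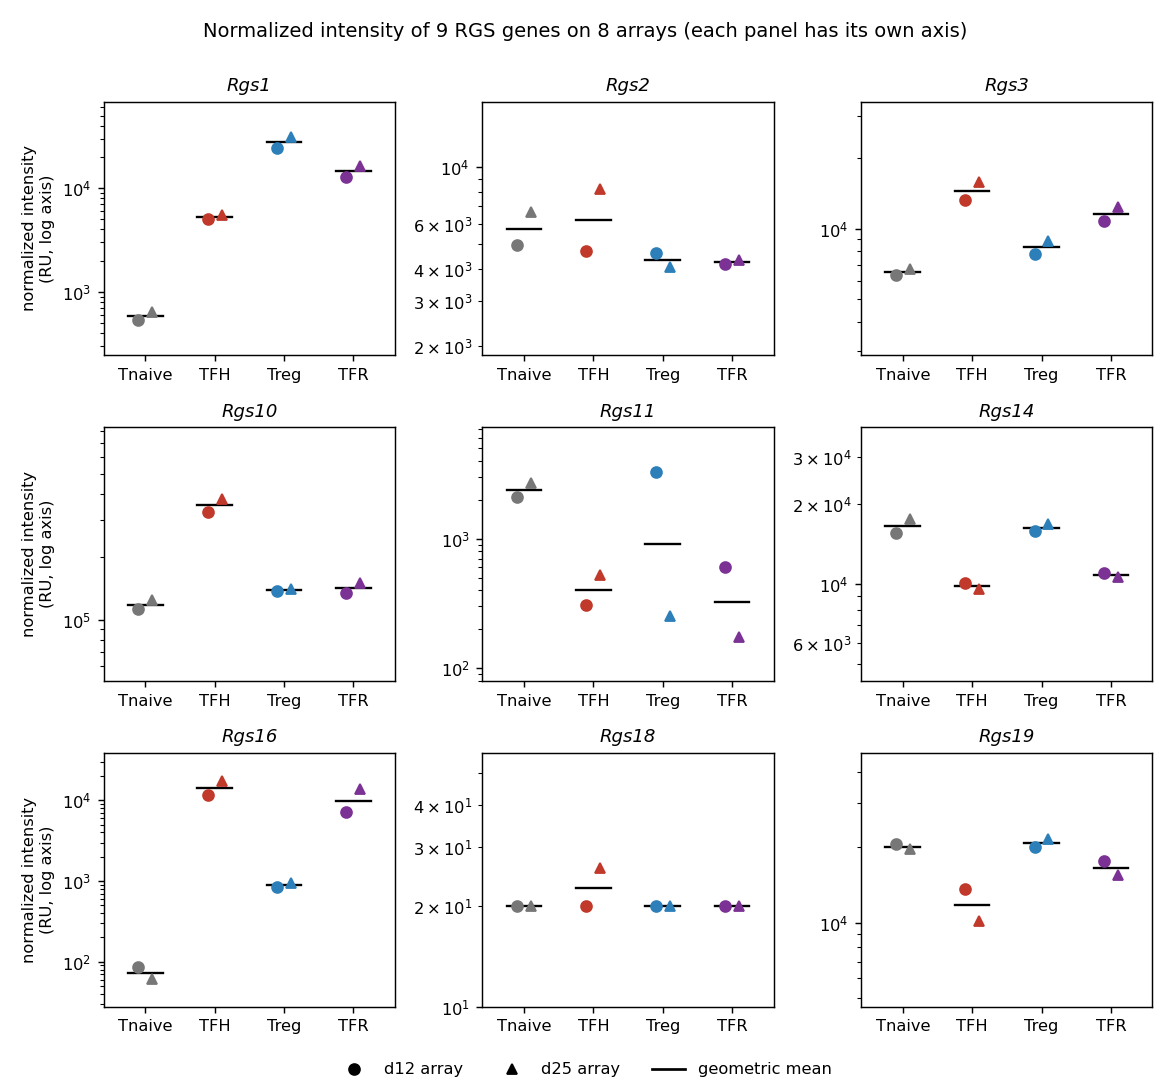
Normalized intensity (RU, log axis) of each RGS gene on the 8 arrays, by cell type. Circles are d12 arrays, triangles d25 arrays and horizontal lines the geometric mean of both. Rgs16 lies at 61 and 86 RU in Tnaive cells and at 7086 to 17493 RU in TFH and TFR cells, Rgs1 is highest in Treg cells, Rgs10 is highest in TFH cells, and Rgs18 lies at or near the lowest possible value of 20 throughout.

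The plot of levels by cell type shows that the genes fall into different patterns. In TFH compared with Tnaive cells, 6 of the 8 tested members were called, while 46.5% of all tested genes were. Rgs1, Rgs3, Rgs10 and Rgs16 were upregulated, and Rgs14 and Rgs19 were downregulated. In TFR compared with Treg cells, 4 of 8 members were called against 39.6% of all genes. Rgs3 and Rgs16 rose, whereas Rgs1 and Rgs14 fell. The median log2 difference of the 8 members was 0.63 in TFH versus Tnaive cells, where the median of all tested genes was -0.07, and -0.18 in TFR versus Treg cells, where that of all genes was -0.08.

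Rgs16 encodes an RGS protein induced in activated lymphocytes that acts on Gi and Gq proteins. Its level in Tnaive cells was 86 RU at d12 and 61 RU at d25, well above background on only 1 of the 2 arrays. It was 11503 and 17493 RU in TFH, 842 and 951 RU in Treg, and 7086 and 13758 RU in TFR cells. TFH and TFR cells overlapped each other and were above every array of Tnaive and Treg cells. The difference was 7.61 ± 0.36 in TFH versus Tnaive cells (adjusted p = 0.000259), or 196-fold, the largest among the members. In TFR versus Treg cells it was 3.46 ± 0.36 (adjusted p = 0.00319), or 11-fold. Treg cells themselves were above Tnaive cells by 3.63 ± 0.36 (adjusted p = 0.00689), with 3.29 at d12 and 3.97 at d25. That call was lost without the filter on dim probes (adjusted p = 0.0669), with slide as block (0.0514), and without the Treg array of d12 (0.0711) or of d25 (0.0645), and its size was 2.19 after normexp background correction. TFR and TFH cells differed by -0.52 ± 0.36 (-0.70 at d12), which was not called (adjusted p = 0.348). The order was thus TFH and TFR cells, not told apart, then Treg and then Tnaive cells.

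After normexp background correction, the rise in TFH versus Tnaive cells was 5.94 instead of 7.61, with the same direction and still called. Its probe lies at chr1:155592244-155592303 (build NCBI37, plus strand).

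Rgs1 encodes a regulator known to restrain chemokine driven migration of lymphocytes. It was lowest in Tnaive cells (541 and 634 RU at d12 and d25), higher in TFH (5019 and 5538 RU), higher again in TFR (12830 and 16415 RU) and highest in Treg cells (24430 and 31000 RU). No cell type overlapped with another, and each step of this order was called. TFH exceeded Tnaive cells by 3.17 ± 0.10 (9-fold, adjusted p = 0.000127) and TFR exceeded TFH cells by 1.46 ± 0.10 (2.75-fold, adjusted p = 0.00155), with 1.35 at d12 and 1.57 at d25. TFR cells were below Treg cells by -0.92 ± 0.10 (adjusted p = 0.00319), reaching 0.527 times their level, with -0.93 at d12 and -0.92 at d25. Treg cells exceeded Tnaive cells 47-fold (5.55 ± 0.10, adjusted p = 0.000305), with 5.50 at d12. Each of these calls of Rgs1 held under all 18 alternative settings.

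Thus, Rgs1 and Rgs16 both rose in Treg over Tnaive cells, the only calls among the 8 members in that comparison, in which 9.88% of all genes were called. They moved in opposite directions from Treg to TFR cells.

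Rgs10 encodes a short member of the family that acts on Gi proteins. Naïve CD4 T cells gave 111726 and 123858 RU, Treg cells 136679 and 139420 RU, and TFR cells 134149 and 150063 RU. TFH cells gave 327536 and 378712 RU, above every other array. The rise in TFH over Tnaive cells was 1.58 ± 0.09 (2.99-fold, adjusted p = 0.000374). Its size ranged from 1.07 to 1.63 over the 18 alternative settings. TFR cells were below TFH cells by -1.31 ± 0.09 (adjusted p = 0.00162), with -1.29 at d12 and -1.34 at d25. Between TFR and Treg cells the difference was 0.04 ± 0.09 (adjusted p = 0.751), and between TFR and Tnaive cells 0.27 ± 0.09 (adjusted p = 0.053). The probe of Rgs10 is at chr7:135517256-135517315 (minus strand).

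Rgs3 encodes a regulator of Gi and Gq proteins with several transcripts. Its brightest probe gave 6362 and 6733 RU in Tnaive, 7797 and 8847 RU in Treg, 10805 and 12349 RU in TFR and 13279 and 15773 RU in TFH cells, and the cell types did not overlap. The rise was 1.14 ± 0.09 in TFH versus Tnaive cells (adjusted p = 0.000811) and 0.48 ± 0.09 in TFR versus Treg cells (adjusted p = 0.0134). TFR and TFH cells (-0.33 ± 0.09, adjusted p = 0.0569, -0.30 at d12) and Treg and Tnaive cells (0.34 ± 0.09, adjusted p = 0.0782, 0.29 at d12) were neighbors in this order that the fit reported did not separate. With a trended variance prior both pairs were called (adjusted p = 0.0239 and 0.0337). TFR and TFH cells were also called with the mean of all probes (-0.67, adjusted p = 0.0168) and with genes above background on all 8 arrays (0.0464). The call in TFR versus Treg cells ended with the mean of all probes, where the difference was 0.08 (adjusted p = 0.61). It also ended without the day term (adjusted p = 0.0571) and when any one of the 4 arrays of these cell types was left out (0.0788 to 0.0858).

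The other probes of Rgs3 differed in size. One that lies further upstream (chr4:62320777-62320836) and listed for another transcript rose by 1.83 in TFH (adjusted p = 0.00035) and by 0.83 in TFR cells (adjusted p = 0.00455). The probe shown above rose by 0.55 in TFH cells (adjusted p = 0.0233) and differed by 0.04 between TFR and Treg cells (adjusted p = 0.841). The fourth probe (chr4:62358833-62358892) was well above background on 3 arrays and gave -1.04 in TFR versus Treg cells (adjusted p = 0.0762). The rise in TFH cells was thus called with 3 of the 4 probes, that in TFR cells with 2 of them. TFR minus TFH cells gave -0.52 with the upstream probe (adjusted p = 0.0249) and -0.31 with the probe shown above (0.158). It was -1.54 with the fourth probe (adjusted p = 0.0417).

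Rgs14 encodes an RGS protein that also carries Ras binding domains and a GoLoco motif for Gi subunits. Its level was 15534 and 17563 RU in Tnaive cells and 15804 and 16719 RU in Treg cells, which overlapped. TFH cells gave 10123 and 9547 RU and TFR cells 11024 and 10614 RU, lower than both. The fall was -0.75 ± 0.10 in TFH cells (adjusted p = 0.00468) and -0.59 ± 0.10 in TFR cells (adjusted p = 0.0121), and TFR and TFH cells differed by 0.14 ± 0.10 (adjusted p = 0.386). In TFR versus Treg cells the call was lost when any one of these 4 arrays was left out, with adjusted p between 0.0638 and 0.0864 and differences between -0.64 and -0.53.

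Rgs19, whose product GAIP acts on Gi subunits, was also lower in TFH cells. The brightest of its 3 probes gave 20487 and 19739 RU in Tnaive, 20078 and 21518 RU in Treg, 17645 and 15543 RU in TFR and 13592 and 10187 RU in TFH cells. TFR cells lay between Treg and TFH cells, without overlap. The difference was -0.77 ± 0.14 in TFH versus Tnaive cells (adjusted p = 0.0116). It was -0.33 ± 0.14 in TFR versus Treg cells, which was not called (adjusted p = 0.131). Both other probes gave a larger fall in TFR cells, -0.56 (adjusted p = 0.00769) and -0.77 (adjusted p = 0.00887), and were called there. In TFH cells they fell by 1.02 (adjusted p = 0.000998) and 1.31 (adjusted p = 0.00141). With the brightest probe, the TFH call was lost without the filter on dim probes (adjusted p = 0.0538) and without the naïve array of d12 (0.0557) or d25 (0.0719).

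**Figure D2:**
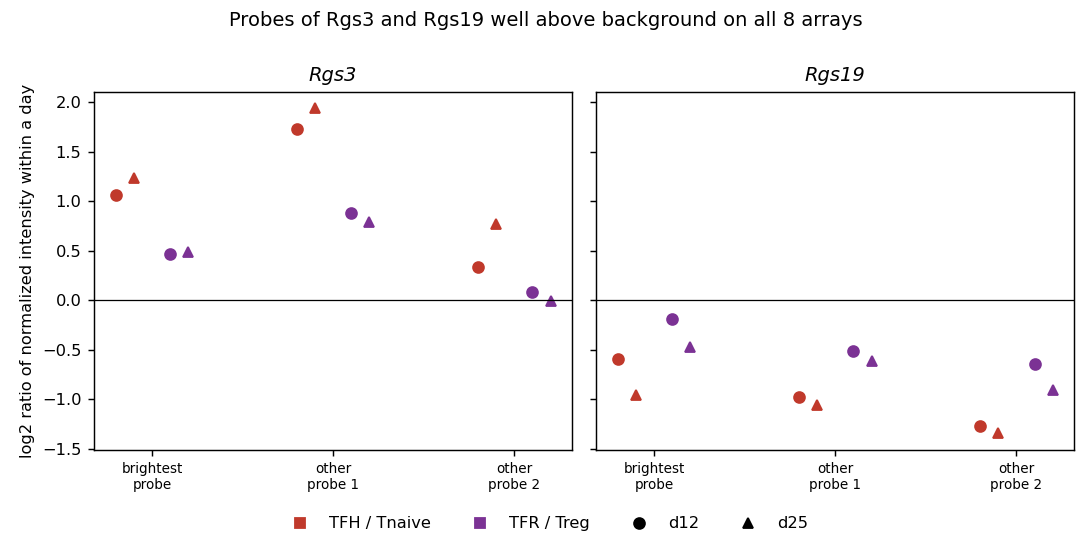
Log2 ratio of normalized intensity within a day, TFH over Tnaive cells (red) and TFR over Treg cells (purple), for the 3 probes of Rgs3 and of Rgs19 that were well above background on all 8 arrays. Circles are d12 and triangles d25, and probes run from the highest to the lowest mean level. The TFR ratio of Rgs3 is near 0 only with its other probe 2, the one whose sequence is shown, and all 3 probes of Rgs19 lie below 0.

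As the plot of probes shows, Rgs3 and Rgs19 kept their direction in TFH cells with every probe drawn, while the size varied between probes. The position of a probe in a transcript and transcript usage were not separated here.

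Rgs2 encodes a regulator with preference for Gq. The probe shown above gave 4932 and 6677 RU in Tnaive, 4700 and 8173 RU in TFH, 4599 and 4042 RU in Treg and 4167 and 4322 RU in TFR cells. The cell types overlapped except that both arrays of Tnaive cells and of TFH cells were above those of Treg and TFR cells. No comparison was called, with a difference of 0.11 ± 0.25 in TFH versus Tnaive cells (adjusted p = 0.744) and -0.02 ± 0.25 in TFR versus Treg cells (adjusted p = 0.954). A second probe of Rgs2, further downstream (chr1:145847227-145847286), was well above background on 0 of the 8 arrays.

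Rgs11 belongs to the members whose protein pairs with the G protein subunit Gbeta5. It was 2079 and 2711 RU in Tnaive cells, 308 and 524 RU in TFH cells, 606 and 175 RU in TFR cells, and in Treg cells 3286 RU at d12 but 251 RU at d25. Tnaive and TFH cells did not overlap, whereas the Treg arrays differed from each other by 3.71 on the log2 scale. The difference of -2.56 ± 1.16 in TFH versus Tnaive cells was not called (adjusted p = 0.13), and with slide in place of day as block it was (adjusted p = 0.026). Gnb5, the gene of Gbeta5, was higher in TFH than in Tnaive cells by 0.90 ± 0.16 (adjusted p = 0.00998).

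Rgs18, best known from platelets and megakaryocytes, was at 20 RU on 7 arrays and at 26 RU in TFH cells at d25. Its probe (chr1:146600137-146600196) was not well above background on any of them, so that no difference can be given. All 6 platelet or megakaryocyte markers examined (Pf4, Ppbp, Itga2b, Gp9, Gp1bb and Treml1) were likewise well above background on no array.

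Members on the same chromosome differed in pattern. Rgs2, Rgs1, Rgs18 and Rgs16 are all read out on chromosome 1, the probes of Rgs2 and Rgs1 243.1 kb apart, those of Rgs1 and Rgs18 508.1 kb and those of Rgs18 and Rgs16 8992.0 kb. Of these genes Rgs1 was highest in Treg cells and Rgs16 in TFH and TFR cells, which were not told apart. Rgs2 showed no called difference, and Rgs18 was not well above background.

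**Figure D3:**
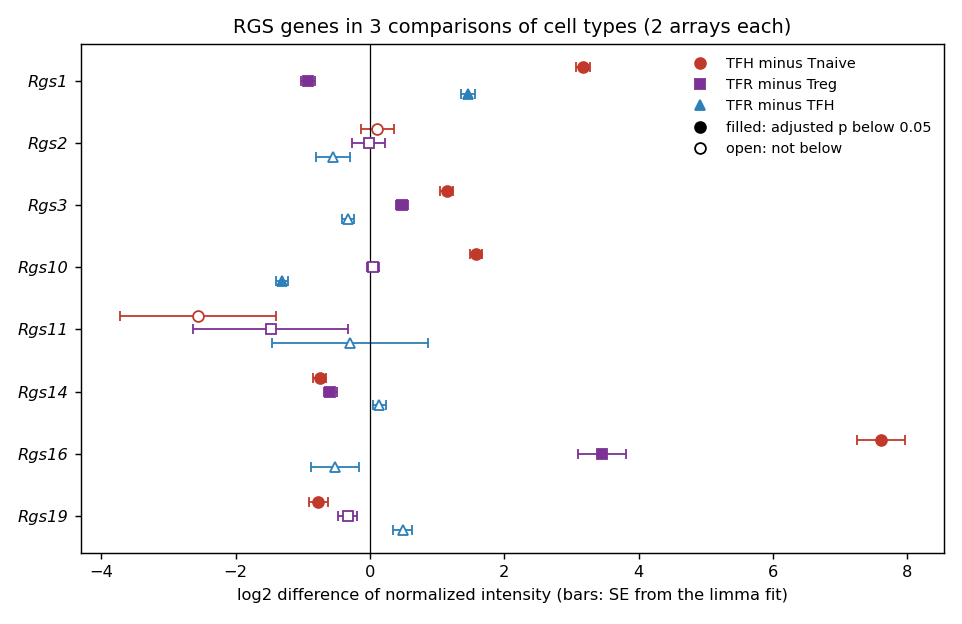
Log2 differences of the 8 tested RGS genes in TFH versus Tnaive cells (circles), TFR versus Treg cells (squares) and TFR versus TFH cells (triangles). Horizontal bars are SE from the limma fit on 2 arrays per cell type, and filled symbols mark an adjusted p below 0.05. Rgs1 has opposite signs in the first 2 comparisons, and Rgs10 rises in TFH cells only.

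Directly compared with TFH cells, TFR cells had 2 of 8 members called, Rgs1 higher and Rgs10 lower, while 22.1% of all genes were called. TFH compared with Treg cells gave 6 of 8 members called against 39.8% of all genes. In that comparison Rgs3 (0.80 ± 0.09, adjusted p = 0.00279), Rgs10 (1.35 ± 0.09, 0.000747) and Rgs16 (3.99 ± 0.36, 0.00167) were higher in TFH cells. Rgs1 (-2.38 ± 0.10, 0.000254), Rgs14 (-0.73 ± 0.10, 0.00597) and Rgs19 (-0.82 ± 0.14, 0.0111) were lower. At d12 the differences were 0.77 for Rgs3, 1.26 for Rgs10, 3.77 for Rgs16, -2.28 for Rgs1, -0.64 for Rgs14 and -0.56 for Rgs19. The call of Rgs19 was lost with slide as block (adjusted p = 0.0606), without the filter on dim probes (0.0551) and without the Treg array of d25 (0.0708), and that of Rgs14 without the Treg array of d25 (0.0523). In TFR compared with Tnaive cells, 4 of 8 members were called against 53.1% of all genes, with Rgs1 (24.8-fold), Rgs3 (1.77-fold) and Rgs16 higher and Rgs14 (0.655-fold) lower. The log2 difference of Rgs16 was 7.09, over Tnaive cells in which it was above background on 1 of 2 arrays, and 5.44 after normexp correction. At d12 the differences were 4.57 for Rgs1, 0.76 for Rgs3, 6.36 for Rgs16 and -0.49 for Rgs14. Rgs19 was not called with its brightest probe (-0.28 ± 0.14, adjusted p = 0.16). Both other probes of Rgs19 were called (-0.65, adjusted p = 0.00327, and -0.89, 0.00391), as was the mean of all its probes (-0.61, 0.00878). For Rgs3, the upstream probe gave 1.31 (adjusted p = 0.000799) and the probe shown above 0.24, not called (0.174). The dim probe of Rgs3 gave -1.30, called in the opposite direction (0.0337). Rgs3 was at 0.27 and no longer called with the mean of all probes (adjusted p = 0.0993), and the call of Rgs14 was lost without the TFR array of d25 (0.0612).

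Whether a follicular cell changed to the same extent with and without Foxp3 was asked by subtracting the difference of TFH and Tnaive cells from that of TFR and Treg cells. This contrast was called for 4 of 8 members and for 8.49% of all genes. In all 4 the value was negative. It was -4.09 ± 0.13 for Rgs1 (adjusted p = 0.0028; -4.14 at d12 and -4.04 at d25), which rose in TFH but fell in TFR cells. For Rgs16 it was -4.15 ± 0.51 (adjusted p = 0.0158; -3.98 and -4.31), with a rise on both sides that was larger in TFH cells and started from a level near background, and with -2.69 after normexp correction. For Rgs10 it was -1.54 ± 0.12 (adjusted p = 0.00665; -1.58 and -1.51), with sizes from -1.61 to -1.10 over the 18 alternatives. For Rgs3 it was -0.67 ± 0.12 (adjusted p = 0.0405; -0.59 and -0.75). The calls of Rgs1 and Rgs10 held under all 18 alternatives, that of Rgs3 under 7 of 18 and that of Rgs16 under 10 of the 17 in which it was tested. Leaving out any one of the 8 arrays ended the call for Rgs3, and leaving out any one of the TFH, Treg or TFR arrays that for Rgs16. For Rgs14 (0.16 ± 0.14, adjusted p = 0.553), Rgs19 (0.45 ± 0.20, 0.257), Rgs2 (-0.13 ± 0.36, 0.857) and Rgs11 (1.08 ± 1.63, 0.738) the extent was not told apart.

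**Figure D4:**
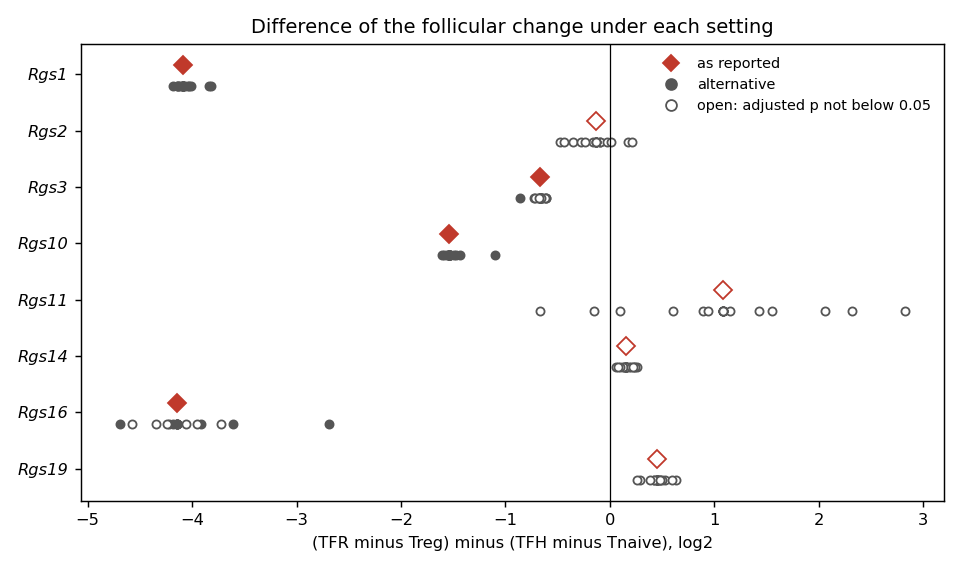
The difference between the follicular change in Foxp3+ and in Foxp3- cells, (TFR minus Treg) minus (TFH minus Tnaive) on the log2 scale, for the 8 tested RGS genes. The red diamond is the value as reported and each grey circle 1 of the 18 alternative settings, drawn open where the adjusted p was not below 0.05. Rgs1 and Rgs10 stay filled throughout, Rgs3 and Rgs16 keep their sign with filled and open circles, and Rgs11 spreads from -0.67 to 2.83.

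Between d25 and d12, limma called 0 of the 8 members and 0.0698% of all genes (11 genes). Without adjustment, 2 members passed 0.05 in the limma fit, Rgs1 (0.27 ± 0.07, adjusted p = 0.101) and Rgs3 (0.18 ± 0.06, adjusted p = 0.148).

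The genes with the most similar profile over the 8 arrays were determined by the root mean square (RMS) difference of gene-centered log2 values. Closest to Rgs16 were Dab2ip (RMS 0.309, Pearson r 0.995) and Ces2b (0.391, r 0.992), where the profile of Rgs16 itself had an RMS of 3.07. Rgs1 was followed less closely by Gm5796 (0.697, r 0.945) and Il2rb, a chain of the IL2 receptor (0.772, r 0.963), at an own RMS of 2.11. Rgs10 was nearest to Ppt1 (0.082, r 0.994) and Pitpnm2 (0.114, r 0.983), and Rgs3 to Hspa5 (0.097, r 0.977) and the kinase gene Fyn (0.099, r 0.975). Rgs14 was nearest to Marc2 (0.048, r 0.99) and Fam13b (0.058, r 0.989). Rgs11 was nearest to D2hgdh (0.365, r 0.974) and Prrg4 (0.465, r 0.968) at an own RMS of 1.54. Its arrays of d12 and d25 differed by 3.71 in Treg and by 1.79 in TFR cells on the log2 scale, so that this match does not follow cell type alone. These likenesses describe 4 cell types on 8 arrays that share pools and slides. Genes with flat profiles such as Rgs2, with Bbs10 (0.105) and Aanat (0.132), are matched on little. The neighbors of Rgs19 carry no gene symbol in the files.

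Of 12 other genes of the RGS family on the array, 4 were tested (Rgs8, Rgs9, Rgs12 and Rgs20). Rgs8, which lies next to Rgs16 in the genome, was 1912 and 1283 RU in TFH cells, 127 and 86 RU in TFR cells, and not well above background in Tnaive and Treg cells. It was at least 26.8-fold higher in TFH than in Tnaive cells (adjusted p = 0.000149), and TFR minus TFH cells gave -3.90 ± 0.21 (adjusted p = 0.00094, -3.91 at d12). Rgs9, a partner of Gbeta5 like Rgs11, went the other way, with 2937 and 4216 RU in TFR against 177 and 463 RU in TFH cells (3.62 ± 0.23, adjusted p = 0.00138, 4.05 at d12). In TFR versus Treg cells Rgs9 rose by 4.07 ± 0.23 (adjusted p = 0.000777) and Rgs12 by 0.90 ± 0.11 (adjusted p = 0.00464), while Rgs20, with a probe of 68.3% C and T, rose in TFH versus Tnaive cells (0.70 ± 0.18, adjusted p = 0.0315). Rgs13, a gene of germinal center B cells, was not tested, with 30 RU at d12 and 426 RU at d25 in TFH and 84 RU or less on the other arrays. Of the 4 tested, 3 rose and none fell in TFH versus Tnaive cells, and 3 rose and none fell in TFR versus Treg cells. In these comparisons 46.5% and 39.6% of all genes were called. Only Rgs8 and Rgs9 rose in both. Rgs12 was not called in TFH cells (-0.30, adjusted p = 0.0752) and Rgs20 not in TFR cells (0.50, adjusted p = 0.0879). Rgs8 was not well above background in Tnaive and Treg cells and Rgs9 not in Tnaive cells, so that Rgs8 was tested only through TFH and TFR cells.

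Among 9 tested alpha subunits, 5 rose and none fell in TFH versus Tnaive cells, and 6 rose and 1 fell in TFR versus Treg cells (medians 0.70 and 0.40). Of all genes, 46.5% and 39.6% were called in these comparisons with medians of -0.07 and -0.08. The Gi class subunits Gnai2 and Gnai3 were not called in TFH cells (-0.13 and -0.03). In TFR cells Gnai2 was not called (-0.04) and Gnai3 fell (-0.50 ± 0.09, adjusted p = 0.0126). Gna14, a rise in both comparisons, was well above background on no Tnaive array and 1 Treg array. It was therefore tested only through follicular cells. Gnaq, the alpha subunit of Gq, was at least 9.37-fold higher in TFH than in Tnaive cells (adjusted p = 0.000283), where it was not well above background, and rose by 2.06 ± 0.17 in TFR cells (adjusted p = 0.0018). Gna13, coupled to S1pr2, rose by 1.46 ± 0.11 in TFH (adjusted p = 0.00086) and by 0.40 ± 0.11 in TFR cells (adjusted p = 0.0444). Gna12 (1.38 ± 0.16) and Gnas (0.70 ± 0.10) rose in TFH cells, and Gna15 (0.94 ± 0.13) and Gna12 (0.74 ± 0.16) in TFR cells.

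Of 13 tested beta and gamma subunits, 7 rose and 2 fell in TFH cells (median 0.38) and 3 rose and 2 fell in TFR cells (median 0.18), against 46.5% and 39.6% called among all genes. Gng3, a rise in both, was well above background only in TFH and TFR cells and was tested only through them. Gnb4, a fall in TFH cells, was tested only through Tnaive cells. Gng2 rose in both, by 2.36 ± 0.10 (adjusted p = 0.000229) and 1.15 ± 0.10 (adjusted p = 0.00236), and Gng4 fell in both, by 0.97 and 0.45. Gngt2 rose in TFH cells (0.38 ± 0.09, adjusted p = 0.0245) and fell in TFR cells (-0.66 ± 0.09, adjusted p = 0.00677).

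Receptor kinases and arrestins, which end receptor signaling upstream of the RGS step, showed 3 falls and no rise among 6 tested genes in either comparison, with medians of -0.35 and -0.16. The share called was near the 46.5% and 39.6% of all genes. Grk6 was -0.95 ± 0.11 in TFH and -0.69 ± 0.11 in TFR cells, Arrb1 -0.60 ± 0.11 and -0.58 ± 0.11, and Arrb2 -0.59 ± 0.12 and -0.59 ± 0.12. Among 9 tested genes with RGS-like domains, 3 rose and 2 fell in TFH cells (median -0.11), and 2 rose and 3 fell in TFR cells (median 0.02), again beside 46.5% and 39.6% of all genes. Arhgef1 fell in both (-1.05 ± 0.12 and -0.69 ± 0.12), whereas its relative Arhgef12 rose in TFH cells (1.66 ± 0.15, adjusted p = 0.00135). Snx25 rose in TFH cells (1.08 ± 0.11) and Snx13 in TFR cells (0.84 ± 0.17), and Axin1 fell in TFR cells (-0.76 ± 0.09). Of 8 other G protein regulators, 2 were called in TFH cells and 2 in TFR cells, beside 46.5% and 39.6% of all genes. These were Ric8b in TFH cells (-0.36 ± 0.09), Gpsm2 in TFR cells (1.23 ± 0.18) and Rap1gap in both. Rap1gap was at least 5.4-fold higher in TFH than in Tnaive cells and at least 4.37-fold higher in TFR than in Treg cells. It was well above background only in TFH and TFR cells and was tested only through them.

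All 28 listed lymphocyte receptors were tested. In TFH cells 11 rose and 12 fell (median 0.20), and in TFR cells 11 rose and 9 fell (median 0.36), while 46.5% and 39.6% of all genes were called. Adora2b, a rise in TFH cells, and Cx3cr1, a rise in TFR cells, were tested only through follicular cells. Cxcr5, the receptor that guides cells into follicles, rose by 7.16 ± 0.23 in TFH (adjusted p = 0.000144) and 3.30 ± 0.23 in TFR cells (adjusted p = 0.0013). Gpr18 and Ccr7 fell in TFH cells by 4.91 and 4.81 (adjusted p = 0.000178 and 0.000212), and S1pr1, the receptor used to leave lymph nodes, fell in TFR cells (-3.20 ± 0.18, adjusted p = 0.000838). Ccr6 rose by 2.59 ± 0.38 in TFR cells (adjusted p = 0.00759). The median absolute log2 difference of these receptors in TFH versus Tnaive cells was 1.85, that of the 8 RGS members 1.36, and that of all tested genes 0.44.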

How the data were processed

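The 8 arrays were read by the authors with Agilent Feature Extraction 10.7.3.1 (per the submitters' processing notes), which gave a background-corrected intensity and quality flags for 157716 spots per array, 4 per probe. The authors also deposited a table of normalized intensity values. Their stated steps were repeated here from the deposited spot intensities: spots were dropped on software flags, outside 1.42 times the interquartile range of their probe or with a pixel coefficient of variation above 0.5, averaged, quantile normalized, and scaled to a 75th percentile of 1500 with a floor of 20. Between 86.45% and 89.18% of spots remained, and log2 values correlated with the authors' table with r of at least 0.99936 on each array. A probe was above background when more than 50% of its spots carried that flag. The deposited flags are software calls with no unit and were used as other values.

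Genes were represented by their brightest probe. limma 3.58.1 in R 4.3.3 (lmFit, eBayes) was fitted to log2 values with cell type and day as terms, leaving 3 residual and 1.89 prior degrees of freedom, and was tested on simulated data. The number of arrays limits the precision. Where a gene was below background on both arrays of a side, "at least" folds use for each array the higher of its level and the lowest signal well above background there. All 9 symbols were found in the RefSeq table of GRCm38.p6, which was used for names and promoters only, since probe positions are in NCBI37. Motifs were searched in the 250 bases before a start. Named genes were the 9 members, the 2 nearest profiles of each tested member, and per list up to 3 called genes with the largest difference in TFH versus naïve CD4 T and TFR versus Treg cells, above background on both sides. Rgs8, Rgs13, Gnai2, Gnai3, Gna14, Gnb4, Gng3, Rap1gap, Adora2b, Cx3cr1 and the TFH value of Gnaq were named outside this rule after their values were seen. Members and lists were chosen with earlier results of these data known. Cells from Peyer's patches were not analysed here.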

Additional observations from a re-analysis of the deposited data

Results flagged for a closer look

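The follicular change, which is the difference between a follicular cell type and its counterpart outside the follicle, differed between Foxp3+ and Foxp3- cells by a test of that difference in the limma fit for 4 RGS members. The log2 value, TFR minus Treg less TFH minus Tnaive, was -4.09 for Rgs1 (adjusted p = 0.0028), -0.67 for Rgs3 (0.0405), -1.54 for Rgs10 (0.00665) and -4.15 for Rgs16 (0.0158).

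By the same test, other genes named by the stated rule from the pathway lists differed as follows. The value was 1.20 for Rgs12 (adjusted p = 0.0173), -1.32 for Arhgef12 (0.0301), -1.06 for Gna13 (0.0251), -1.30 for Gnaq (0.0398), -1.22 for Gng2 (0.0158), -1.04 for Gngt2 (0.0168) and 1.79 for Gpsm2 (0.0221). Among the receptors it was -3.85 for Cxcr5 (adjusted p = 0.00703), 2.44 for Gpr18 (0.0116) and 2.45 for Ccr7 (0.0144).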

How the results depend on the processing

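Of 64 values (8 members in 8 contrasts), 28 were called. Over 18 alternatives these gave 498 values, of which 457 kept direction and call, 41 kept the direction but lost the call and 0 changed sign. For the other 36, 583 of 630 values stayed uncalled in the same direction and 16 became called. No alternative moved the count of members called by more than 1.5 times in TFH versus Tnaive (6), TFH versus Treg (6) or TFR versus Tnaive cells (4), or away from 0 between days. The count of 2 in TFR versus TFH cells became 4 with a trended variance prior, which added Rgs3 and Rgs19. The count of 2 in Treg versus Tnaive cells became 1 without a filter, with genes above background on all 8 arrays (which drops Rgs16) and with slide as block, and ranged from 1 to 2 when single arrays were left out. The count of 4 in TFR versus Treg cells ranged from 2 to 4 over left-out arrays, without Rgs3 and Rgs14 when a Treg or TFR array of either day was left out. The count of 4 for the Foxp3+ minus Foxp3- follicular change became 2 without a filter and ranged from 2 to 3 over left-out arrays, with 2 when a TFH, Treg or TFR array of either day was left out. The cause was not tested.

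Under the 18 alternatives every value that changed sign was uncalled in the fit reported. These were Rgs2 in TFR versus Treg cells (0.02 with normexp), Rgs10 in TFR versus Treg cells (-0.03) and between days (-0.08) and Rgs14 between days (-0.04), these 3 with 75th percentile scaling alone. Rgs11 in TFR versus TFH cells gave 0.04 with no spot excluded and 1.36 with slide as block, and in Treg versus Tnaive cells 0.28 with slide as block. Rgs19 in Treg versus Tnaive cells gave -0.04 with 75th percentile scaling alone, -0.06 with the mean of all probes and -0.05 with slide as block. Probes chosen after seeing the data gave -0.09 and -0.12 for Rgs19 in Treg versus Tnaive cells and -0.08 for Rgs2 between days. The dim probe of Rgs3 gave -1.04 in TFR versus Treg, -0.26 in Treg versus Tnaive and -1.30 in TFR versus Tnaive cells. With the brightest probe these were the called 0.48, the uncalled 0.34 and the called 0.82. The value of -1.30 was itself called (adjusted p = 0.0337), with this probe at 20 RU, the lowest possible value, on both TFR arrays. Over left-out arrays, the values that changed sign ranged for Rgs2 from -0.24 to 0.46 in TFH versus Tnaive cells, from -0.33 to 0.29 in TFR versus Treg cells and from -0.48 to 0.21 in the Foxp3+ minus Foxp3- follicular change. For Rgs11 they ranged from -2.92 to 0.57 in TFH versus Treg, -1.54 to 0.93 in TFR versus TFH, -3.23 to 0.27 in TFR versus Treg and -3.14 to 0.36 in Treg versus Tnaive cells, and from -0.67 to 2.83 in the follicular change. They were -0.03 to 0.11 for Rgs10 in TFR versus Treg cells, -0.12 to 0.08 for Rgs14 and -0.11 to 0.21 for Rgs19 in Treg versus Tnaive cells, and -0.02 to 0.07 for Rgs14 between days.

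The labels give no replicate numbers, but each cell type has 1 array per day, so day pairs the arrays and was a term of the fit reported. Without it, Rgs3 lost its call in TFR versus Treg cells (adjusted p = 0.0571) and in the follicular change (0.154). With 1 array per cell type and day, an array left out leaves 1 array of its cell type, assumed to vary like the others. Weak signal limits Rgs16 in Tnaive cells and Rgs18 throughout.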
